A study of Homo sapiens with 5 samples.

Results

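The transcripts described here encode the collagen chains, the laminin chains, the alpha and beta subunits of the integrins that bind matrix, and a small group of matrix glycoproteins and crosslinking enzymes. They were chosen by gene symbol among protein-coding genes: every COL chain, LAMA, LAMB and LAMC chain, numbered ITGA and ITGB subunit and ITGAV, together with FN1, SPARC, NID1, NID2, HSPG2, LOX, LOXL2, THBS1 and THBS2. Of 85 genes of the GENCODE annotation that fit these symbols, 58 had a row among the 13822 rows of the expression table, and 27 had none. The 58 members were 27 of 44 collagen chains, 8 of 12 laminin chains, 17 of 20 integrin subunits and 6 of 9 other matrix genes. Among the genes with no row were COL10A1, COL11A1, COL17A1, COL1A2, COL20A1, COL22A1, COL23A1, COL26A1, COL28A1, COL4A3, COL4A6, COL6A3, COL6A5, COL6A6, COL8A1, COL9A1, COL9A2, ITGA8, ITGA9, ITGB7, LOX, NID2 and THBS2.

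Poly-A RNA was sequenced from RH4 cells, an established line of alveolar rhabdomyosarcoma, a childhood tumour of cells with features of immature skeletal muscle. The 3 si-SCR samples received a control siRNA, and the 2 si-circVAMP3 samples an siRNA against circVAMP3, a circular RNA made from the VAMP3 gene. Per the study's methods, transfection used 30 nM siRNA, with fresh medium at 24 h. Collection followed after 24 h more, a schedule given for cases where nothing else is specified. A single line and a single siRNA stand behind the comparison, so an effect through the circular RNA and any other effect of this siRNA cannot be told apart. The methods call the samples biological replicates, but the labels name no separate cultures, and p-values measure only the spread between these 5 samples. Levels are FPKM, fragments scaled to transcript length and to sequencing depth, a unit that allows levels of genes of different length to be compared. The whole fragments behind the FPKM values came to 25690729, 24328213 and 24225322 in si-SCR replicates 1 to 3, and to 18140759 and 28128455 in si-circVAMP3 replicates 1 and 2.

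Collagens form fibrils, networks and filaments outside the cell. Laminins, type IV collagens, nidogen and perlecan assemble into the basement membrane that surrounds muscle fibres, and fibronectin forms a fibrillar matrix around migrating cells. Integrins are alpha-beta pairs in the cell membrane that hold these proteins on the outside. On the inside they hold the actin cytoskeleton through talin, kindlin and the integrin-linked kinase complex. ITGA7 with ITGB1 is the main laminin-binding integrin of skeletal muscle.

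The siRNA is shown because it defines the treatment. It was directed at the junction where the end of VAMP3 exon 4 is joined back to the start of exon 3, a sequence that the linear mRNA does not contain. On GRCh38, exon 3 lies at chr1:7777160-7777318 and exon 4 at chr1:7778118-7778169, both on the plus strand, and together they give a circle of 211 nucleotides. Of the 21 bases of the sense strand, 19 match the circle; capitals mark the 8 bases from the end of exon 4, the next 11 come from the start of exon 3, and the last bases are the overhang.
si-circVAMP3 sense strand: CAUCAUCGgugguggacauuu

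VAMP3 itself read 36.4, 35.4 and 37.4 FPKM in si-SCR and 29.4 and 30.2 FPKM in si-circVAMP3. Both knock-down samples lay below every control sample, with a log2 difference of -0.29 (95% interval -0.39 to -0.19, limma adjusted p = 0.005). Without si-circVAMP3 replicate 1 the adjusted p was 0.052. The row counts poly-A RNA of the gene, which is mostly the linear mRNA, so it is a weak check of the labels. The circular RNA was not analysed here.

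As a check of the cell type, 12 of 15 markers of alveolar rhabdomyosarcoma had a row (MYF5, MYF6 and PAX7 had none), and DES, the muscle intermediate filament, was the most abundant. Their summed level was 1097, 1087 and 959 FPKM in si-SCR and 901 and 905 FPKM in si-circVAMP3. Among these markers, 3 were lower upon knock-down (25.0%, against 14.5% of all rows) and 0 were higher by limma; at an unadjusted p under 0.05, 5 were lower and 0 higher by limma, and 6 and 0 by voom. In 9 of the 12 (75.0%, against 28.5% of all rows) both knock-down samples lay below all controls. MYOD1, a myogenic transcription factor, overlapped at 115, 105 and 84.3 FPKM against 106 and 127 FPKM and was not called. MYOG, also a myogenic transcription factor, read 175, 179 and 149 FPKM against 101 and 96.6 FPKM (log2 -0.76, limma adjusted p = 0.00158). CHRND, an acetylcholine receptor subunit, had a log2 difference of -0.31 and FOXO1 of -0.28. MYOG kept its call without each sample in turn; CHRND lost it without si-circVAMP3 replicate 2 (adjusted p = 0.0782), and FOXO1 without si-SCR replicate 2 or either si-circVAMP3 replicate (limma adjusted p up to 0.163).

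Other cell types left few transcripts in the table. The leukocyte markers had 0 of 7 rows. Of the endothelial markers 1 of 7 had a row, PECAM1, at 0.121, 0.0879 and 0.0777 FPKM in si-SCR and 0.153 and 0.103 FPKM in si-circVAMP3, while CDH5, VWF, KDR, TEK, CLDN5 and ERG had none. Of the fibroblast markers 3 of 8 had a row, with sums of 1.87, 1.72 and 1.89 FPKM against 1.85 and 1.74 FPKM and PDGFRA the most abundant; LUM, FAP, THY1, POSTN and TCF21 had none. In that list PDGFRB was called higher (log2 0.46), a call lost without any 1 of the 5 samples (limma adjusted p 0.0774 to 0.182) and with a pseudocount of 0.01 (0.0502). Of the epithelial markers 1 of 7 had a row, KRT8, at 0.316, 0.215 and 0.256 FPKM in si-SCR and 0.651 and 0.58 FPKM in si-circVAMP3 (log2 0.99, limma adjusted p = 0.00661, and 0.0578 without si-circVAMP3 replicate 1), while EPCAM, CDH1, KRT5, KRT14, KRT18 and KRT19 had none. The part of the lower muscle markers and the higher KRT8 in the results below was not tested, and in RNA from whole cultures fewer cells of a state and less RNA per cell cannot be told apart.

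The control sample si-SCR replicate 3 stood apart from the other controls. In it, 37 of the 58 members (63.8%) were at their lowest among the controls, against 35.0% of all rows. The shift followed base composition: across members, the Spearman correlation between transcript GC content and the log2 difference of si-SCR replicate 3 from the mean of replicates 1 and 2 was -0.64 (n = 58 genes), and across all rows with a GC value it was -0.44 (n = 13783). The log2 difference upon knock-down correlated with GC content at 0.42 across members and 0.15 across all rows; without si-SCR replicate 3 these were 0.19 and 0.04. These genes share the same libraries and are not independent. Of the 21 members with a GC content of at least 60%, 18 were lowest in si-SCR replicate 3, with a median difference of -0.31, where the 2024 rows of that content in the table had -0.25. COL6A1, LAMA5, COL18A1 and HSPG2, singled out after their values were seen, lie in this GC-rich group.

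**Figure D1:**
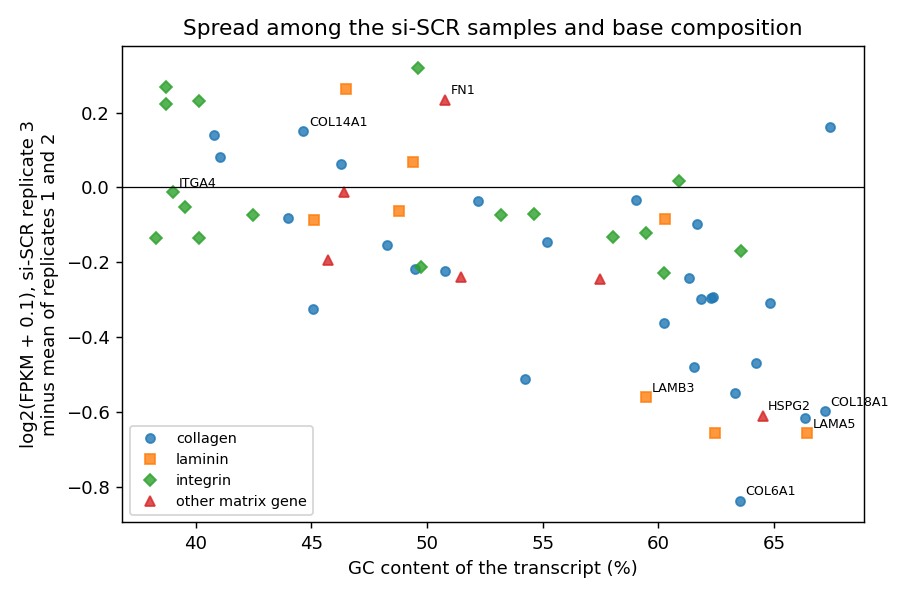
GC content of the transcript, in percent, against the log2(FPKM + 0.1) difference of si-SCR replicate 3 from the mean of si-SCR replicates 1 and 2, with 1 point per member and the 4 families as symbols. Most points at high GC content lie below 0, with COL6A1 lowest at -0.84, but COL9A3, the member with the highest GC content (67.4%), lies at 0.16, while ITGA4 lies at -0.01 and FN1 at 0.23.

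Upon circVAMP3 knock-down, 6 of the 58 members were called higher (LAMB3, COL9A3, COL2A1, FN1, ITGA5 and LOXL2) and 6 were called lower (COL14A1, COL19A1, ITGA4, ITGA7, ITGB5 and LAMC1) by limma at an adjusted p under 0.05. These are 10.3% of the members in each direction. Over all 13822 rows, 12.7% were called higher and 14.5% lower, so the members' shares were near the background in both directions. With a log2 difference beyond 0.58 also required, 3 of the 58 members were higher and 1 was lower. Of the 13822 rows, 226 (1.64%) and 569 (4.12%) were. Of the 3 higher members, COL9A3 and COL2A1 rest on few fragments in the controls and would fail the study's filter, as given below. The count of 3 is thus not read as an excess over all rows. Every knock-down sample lay above every control sample for 9 members and below for 19, against 27.8% and 28.5% of all rows; the members' shares were 15.5% and 32.8%. The median log2 difference was -0.04 over the members and 0.00 over all rows, and over the members it was 0.01 without si-SCR replicate 1 and -0.07 without si-SCR replicate 3. Differences are on the log2(FPKM + 0.1) scale, which understates the change of genes near or under 0.1 FPKM.

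Of the 12 calls, those of COL14A1, FN1 and ITGA4, 3 in all, were kept in each of the 15 alternative analyses. Without si-circVAMP3 replicate 1, 4 members were called, and without replicate 2, 3 were; the remaining knock-down sample was then assumed to vary like the controls. Without si-SCR replicate 1, 3 were called lower, and without si-SCR replicate 2, 2 were. The 46 members that were not called had log2 differences from -0.43 to 0.32.

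Without si-SCR replicate 3, 6 members were called higher and 8 lower; COL19A1 was lost, COL18A1, COL6A1 and NID1 were gained, and 11 of the 12 calls were shared. With the GC trend removed from each sample, 7 were higher and 7 lower, LAMC1 was lost and COL18A1, COL3A1 and ITGA6 were gained. The part of base composition in the wide control spread of the other GC-rich members was not tested.

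**Figure D2:**
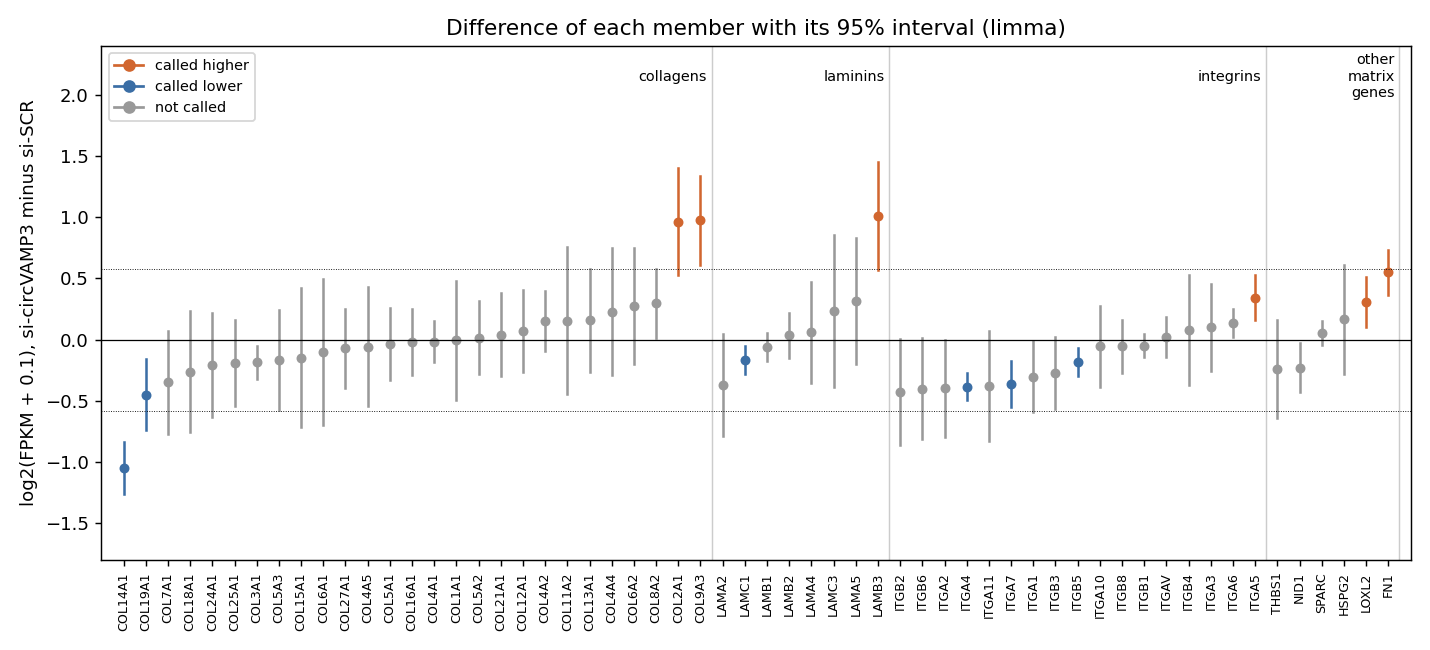
Log2 difference between si-circVAMP3 (n = 2) and si-SCR (n = 3) for the 58 members, on the log2(FPKM + 0.1) scale, by family, with the 95% interval from limma; dotted lines mark 0.58 in each direction. Orange points are the 6 members called higher, blue points the 6 called lower and grey points the 46 not called; the outermost points are LAMB3 at 1.01 and COL14A1 at -1.05.

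By level, 17 members had a mean of at least 10 FPKM over the 5 samples, 14 a mean from 1 to 10 FPKM and 27 a mean under 1 FPKM. At least 1000 fragments in every sample stood behind 22 members, and under 100 in every sample behind 20. SPARC was the most abundant member, with a mean of 226 FPKM, followed by FN1 at 85.3, ITGB1 at 73.1 and LAMC1 at 41.3 FPKM. The summed level of the members was 784, 774 and 739 FPKM in si-SCR and 800 and 793 FPKM in si-circVAMP3, so both knock-down sums were above all control sums. FN1 carried this: without it the sums were 716, 705 and 659 FPKM against 692 and 690 FPKM, which overlap.

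**Figure D3:**
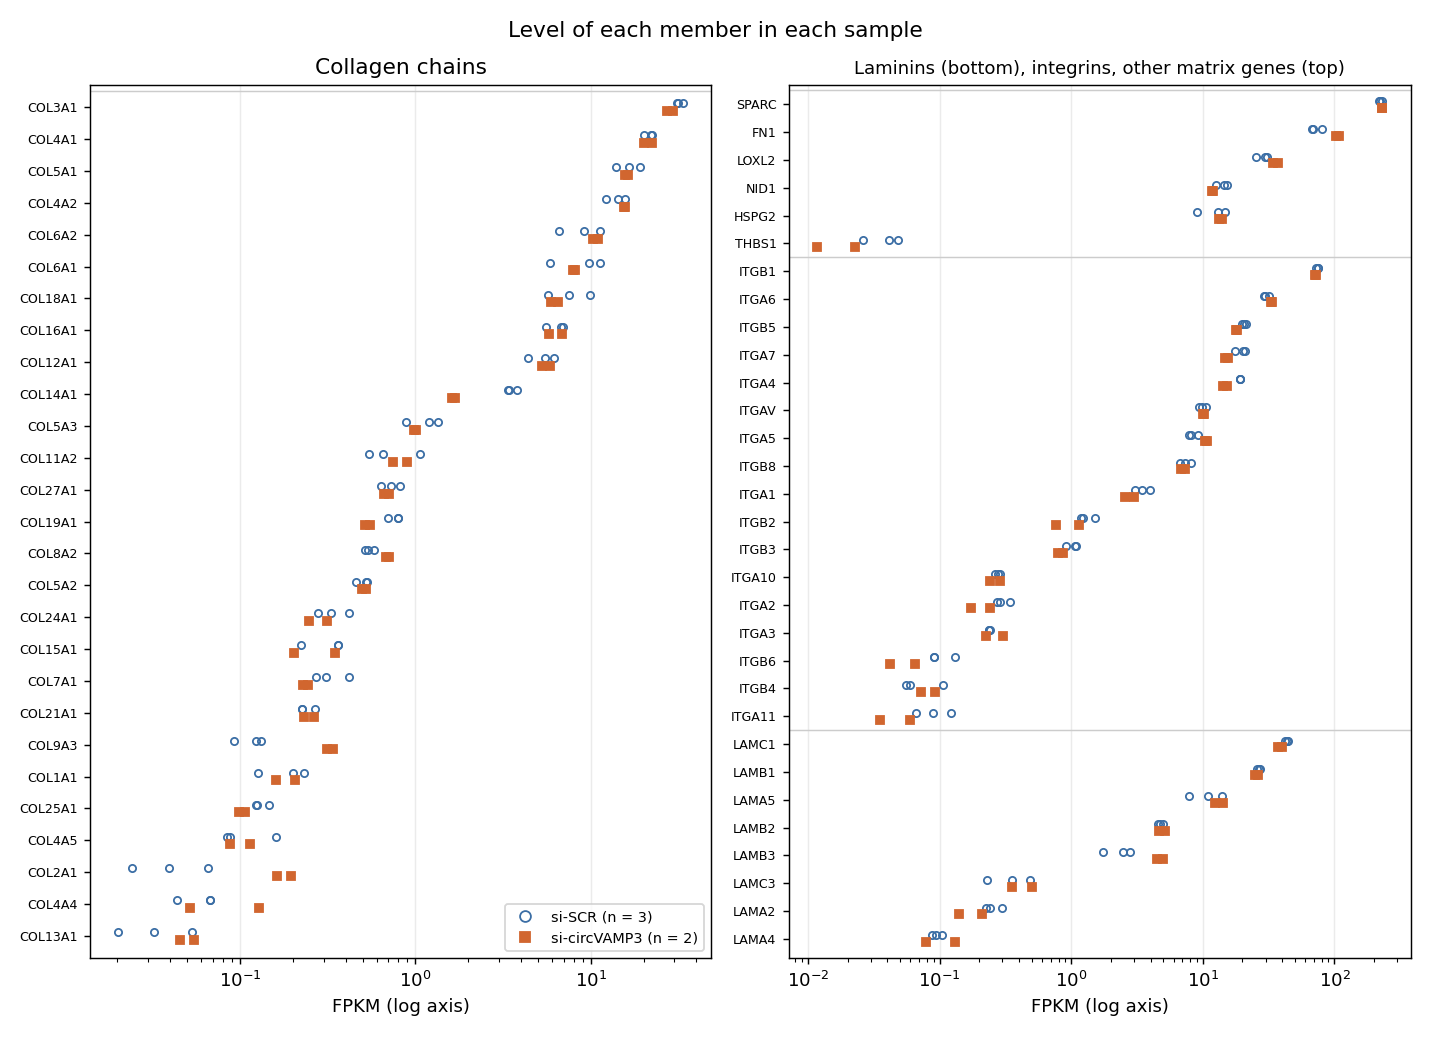
FPKM of each member in each of the 5 samples, on a logarithmic axis, with si-SCR as open circles and si-circVAMP3 as filled squares; collagens on the left, and laminins, integrins and other matrix genes on the right. SPARC lies highest at 218 to 231 FPKM, and the knock-down squares stand clear of the circles for COL14A1 on the low side and FN1 on the high side.

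Of the 27 collagen chains, 2 were called higher and 2 lower (7.41% each, against 12.7% and 14.5% of all rows) and 23 neither, with a median log2 difference of -0.02 that was 0.05 without si-SCR replicate 1 and -0.13 without si-SCR replicate 3. COL14A1 (chr8:120059780-120373573 on GRCh38, plus strand), a collagen that sits on the surface of fibrils, had the lowest difference of the members, in the main comparison and in each alternative. It read 3.41, 3.38 and 3.78 FPKM in si-SCR and 1.68 and 1.61 FPKM in si-circVAMP3. Both knock-down samples were below all controls and close to each other, and 927, 860 and 960 fragments against 318 and 472 stood behind the values. The fold was 0.468 and the log2 difference -1.05 (95% interval -1.26 to -0.84, limma adjusted p = 0.000746); over the alternatives the difference ran from -1.10 to -0.77 with an adjusted p up to 0.0136. COL19A1, another collagen of this fibril-associated class, read 0.80, 0.697 and 0.797 FPKM against 0.548 and 0.517 FPKM. The groups did not overlap (log2 -0.45, limma adjusted p = 0.0352), but the call was lost without any 1 of the 5 samples (adjusted p 0.0622 to 0.166) and under quantile normalization (0.0545).

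The other 2 called collagens were chains known from cartilage, where collagen IX coats fibrils of collagen II. COL9A3 read 0.0929, 0.124 and 0.132 FPKM in si-SCR and 0.312 and 0.337 FPKM in si-circVAMP3, from 12, 15 and 16 fragments against 28 and 47. COL2A1 read 0.0394, 0.0661 and 0.0241 FPKM against 0.194 and 0.162 FPKM, from 7, 11 and 4 fragments against 24 and 31. Both stood higher in each knock-down sample than in any control, at levels that few fragments support. In CPM, fragments scaled to the effective library size but not to length, COL9A3 was at 0.45, 0.60 and 0.641 against 1.51 and 1.63, and COL2A1 at 0.262, 0.44 and 0.16 against 1.29 and 1.08. Both thus reached 1 CPM only in the knock-down samples, as 55 of all rows did. In turn 83 rows, with COL25A1 among the members, reached it only in the controls. The methods state that genes under 1 CPM in at least 3 samples were removed before the differential expression analysis. COL9A3 and COL2A1 were under it in all 3 controls, so that rule would remove both. The calls of these 2 genes may thus depend on which low genes were kept. Their log2 differences were 0.98 (limma adjusted p = 0.0059) and 0.97 (adjusted p = 0.011), and the ratios of the mean FPKM were 2.79 and 4.12. The COL9A3 call was lost without si-circVAMP3 replicate 2 (adjusted p = 0.0528), and the COL2A1 call without replicate 1 (0.082) or replicate 2 (0.0577), by limma with Benjamini-Hochberg adjustment. The partner chains COL9A1 and COL9A2 had no row.

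Among the fibril-forming chains, 9 of 11 had a row, and COL2A1 was the only one called with all samples in the main comparison. COL3A1, the chain of collagen III, was the most abundant collagen. It read 33.6, 31.1 and 31.5 FPKM in si-SCR and 29.5 and 27.1 FPKM in si-circVAMP3. The knock-down samples lay below the controls, but the difference of -0.18 missed the threshold (limma adjusted p = 0.0535); it passed with voom (0.0276), with the GC trend removed (0.0398) and with sample weights (0.0438). COL5A1, a chain that regulates fibril diameter, read 19.2, 16.6 and 13.8 FPKM against 15.7 and 16.3 FPKM, which lie inside the control range (log2 -0.034, adjusted p = 0.863, with log2 0.079 without si-SCR replicate 1 and -0.155 without si-SCR replicate 3). COL1A1, the alpha 1 chain of collagen I, was at 0.233, 0.20 and 0.127 FPKM in si-SCR and 0.159 and 0.205 FPKM in si-circVAMP3, also overlapping (log2 -0.007, adjusted p = 0.982; above 0 without si-SCR replicate 1 or 2 or si-circVAMP3 replicate 1, under quantile normalization and with voom), and its partner COL1A2 had no row. COL3A1 was thus far above COL1A1 in every sample.

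The collagens of the basement membrane and other networks were measured in 5 of 9 chains, and 0 were called in the main comparison; at an unadjusted p under 0.05, 1 of them (COL8A2, higher) passed by limma and 0 by voom, and COL8A2 was called without the mean-variance trend. COL4A1 read 22.3, 21.97 and 19.98 FPKM in si-SCR and 22.3 and 20.03 FPKM in si-circVAMP3. Its partner COL4A2 read 15.8, 14.3 and 12.2 FPKM against 15.7 and 15.4 FPKM. Both overlapped between the groups, with log2 differences of -0.016 (95% interval -0.18 to 0.15) and 0.15 (-0.09 to 0.40). The COL4A2 difference was 0.24 without si-SCR replicate 1 and 0.05 without si-SCR replicate 3. The COL4A1 difference ran from -0.094 to 0.062 when a sample was left out and changed sign without si-SCR replicate 1 (0.013), si-SCR replicate 2 (0.003) or si-circVAMP3 replicate 2 (0.062). The ratio of COL4A1 to COL4A2 was 1.41, 1.54 and 1.64 in the controls and 1.42 and 1.301 in the knock-down samples.

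The 2 genes lie head to head on chromosome 13, and the window around the COL4A2 start is shown because the pair shares it. The sequence is RefSeq's on GRCh38.p14, at chr13:110307034-110307333 on the plus strand, from 250 bases before the COL4A2 start at 110307284 to 50 bases from it. Capitals run from the start of COL4A1 at 110307157, which is transcribed from the other strand, to that of COL4A2, 127 bases further on. This distance holds for the RefSeq start of COL4A2. In the gene coordinates used for the members, COL4A2 begins at 110305812, inside COL4A1. Reads were counted by strand, which keeps the transcripts of the pair apart.
COL4A2 start: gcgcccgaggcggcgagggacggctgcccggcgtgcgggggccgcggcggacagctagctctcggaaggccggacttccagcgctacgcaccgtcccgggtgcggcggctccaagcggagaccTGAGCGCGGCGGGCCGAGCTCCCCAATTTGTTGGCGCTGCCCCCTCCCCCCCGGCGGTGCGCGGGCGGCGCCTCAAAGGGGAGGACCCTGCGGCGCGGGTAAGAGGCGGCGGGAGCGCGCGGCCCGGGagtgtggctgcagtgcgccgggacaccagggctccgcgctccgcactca

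The chains of collagen VI, which forms beaded filaments around muscle fibres, were COL6A1 and COL6A2 here, as COL6A3 had no row. COL6A1 read 11.4, 9.70 and 5.83 FPKM in si-SCR and 7.90 and 8.14 FPKM in si-circVAMP3. COL6A2 read 11.2, 9.09 and 6.57 FPKM against 10.2 and 10.98 FPKM. In both, si-SCR replicate 3 was the lowest sample and the groups overlapped (log2 -0.105 and 0.27, limma adjusted p = 0.788 and 0.352). Both depended on which control was left out. The COL6A2 difference was 0.45 without si-SCR replicate 1 and 0.07 without si-SCR replicate 3. COL6A1 had a log2 difference of 0.090 without si-SCR replicate 1, of -0.02 without si-SCR replicate 2 and of -0.38 without si-SCR replicate 3 (adjusted p = 0.017). The ratio of COL6A2 to COL6A1 was 0.991, 0.937 and 1.13 in the controls and 1.29 and 1.35 in the knock-down samples, both above all controls.

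Of the 8 laminin chains with a row, LAMB3 was called higher, LAMC1 lower (12.5% each, against 12.7% and 14.5% of all rows) and 6 neither, and the median log2 difference was 0.05 (0.01 without si-SCR replicate 3, -0.07 without si-circVAMP3 replicate 1 and 0.17 without si-circVAMP3 replicate 2). LAMB3 (chr1:209614870-209652425, minus strand), a beta chain of the laminin that anchors epithelial sheets, had the highest difference of the members on this scale. COL2A1 and COL9A3 came close, and COL2A1 was the highest with a pseudocount of 0.01 (1.89) and with voom (2.05), and COL9A3 under quantile normalization (1.06), among other alternatives. LAMB3 read 2.79, 2.45 and 1.74 FPKM in si-SCR and 4.48 and 4.95 FPKM in si-circVAMP3. Both knock-down samples were above all controls, from 346, 285 and 202 fragments against 386 and 662. The fold was 2.02 and the log2 difference 1.01 (95% interval 0.57 to 1.45, limma adjusted p = 0.00946); the call was lost without si-circVAMP3 replicate 1 (adjusted p = 0.0559) or replicate 2 (0.0759), where the differences were 1.08 and 0.94.

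LAMC1, the gamma chain of most laminins, was the most abundant laminin. It read 44.3, 43.3 and 41.9 FPKM in si-SCR and 39.8 and 37.0 FPKM in si-circVAMP3. The groups did not overlap, with a log2 difference of -0.17 (limma adjusted p = 0.0433), but the call was lost when any 1 sample other than si-SCR replicate 3 was left out (adjusted p 0.0742 to 0.256), without the mean-variance trend (0.113) and with the GC trend removed (0.0572). Its partner LAMB1 read 26.5, 25.7 and 27.4 FPKM against 26.2 and 24.7 FPKM, which overlapped (log2 -0.06, adjusted p = 0.414; -0.04 without si-SCR replicate 3, -0.10 without si-circVAMP3 replicate 1 and -0.02 without si-circVAMP3 replicate 2). LAMA5, the most abundant alpha chain, read 13.9, 10.96 and 7.81 FPKM in the controls and 12.4 and 14.2 FPKM upon knock-down. Its si-SCR replicate 3 was the lowest sample, and the groups overlapped (log2 0.32, 95% interval -0.20 to 0.83, adjusted p = 0.319; 0.51 without si-SCR replicate 1 and 0.099 without si-SCR replicate 3). LAMB3 stood at 0.105, 0.0954 and 0.0636 of the LAMB1 level in the controls and at 0.171 and 0.20 in the knock-down samples, so LAMB1 was the more abundant of the pair in every sample.

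FN1, fibronectin (chr2:215360440-215436073, minus strand), gave the largest absolute shift in level among the members. It read 67.3, 68.8 and 80.1 FPKM in si-SCR and 107 and 103 FPKM in si-circVAMP3. Both knock-down samples were above all controls, on 29600 to 51078 fragments per sample. The fold was 1.46 and the log2 difference 0.55 (95% interval 0.36 to 0.73, limma adjusted p = 0.00408), and over the alternatives the difference ran from 0.50 to 0.63 with an adjusted p up to 0.0431. The ratio of FN1 to SPARC was 0.31, 0.301 and 0.362 in the controls and 0.466 and 0.446 upon knock-down, with no overlap.

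The window around the FN1 start is shown because FN1 was the most abundant called member. It is RefSeq's sequence on GRCh38.p14 at chr2:215436019-215436318, minus strand, with the start at 215436068. Capitals mark each match on either strand to GGGCGG (6 matches, some overlapping each other), CCAAT (1) and TGACGTCA (1), motifs named for Sp1, for the CCAAT box and for the cAMP response element; TATAAA and CAGCTG had 0 matches.
FN1 start: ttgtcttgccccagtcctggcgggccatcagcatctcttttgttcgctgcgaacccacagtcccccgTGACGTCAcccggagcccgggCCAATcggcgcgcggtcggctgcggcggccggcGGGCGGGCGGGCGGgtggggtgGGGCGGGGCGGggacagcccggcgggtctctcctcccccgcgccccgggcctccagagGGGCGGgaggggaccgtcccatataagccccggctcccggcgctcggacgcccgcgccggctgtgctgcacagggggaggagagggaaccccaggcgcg

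Promoter windows of this length were given by RefSeq for 44 of the 58 members and for 10386 genes of the table. GGGCGG was found in 63.6% of the member windows and 70.3% of all, CCAAT in 22.7% and 37.2%, TATAAA in 9.09% and 5.25%, CAGCTG in 18.2% and 17.1%, and TGACGTCA in 2.27% and 3.39%. FN1 was the only member with TGACGTCA. The median GC content of the windows was 69.7% for members and 65.3% for all. A match describes letters in the window and not a bound site.

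Of the other matrix genes, SPARC, a collagen-binding glycoprotein, read 218, 228 and 221 FPKM in si-SCR and 231 and 231 FPKM in si-circVAMP3. Both knock-down samples were slightly above the controls, but the log2 difference of 0.05 (95% interval -0.04 to 0.15) missed the threshold (limma adjusted p = 0.356). LOXL2, an enzyme that crosslinks collagen, read 29.8, 30.6 and 25.4 FPKM against 33.8 and 36.9 FPKM. The groups did not overlap (log2 0.31, limma adjusted p = 0.0387), but the call was lost when any 1 sample other than si-SCR replicate 3 was left out (adjusted p 0.0512 to 0.213) and without the mean-variance trend (0.0866). NID1, which links laminin to collagen IV, HSPG2, which encodes perlecan, and THBS1, which encodes thrombospondin, were not called. The HSPG2 log2 difference of 0.17 was 0.31 without si-SCR replicate 1 and turned to -0.04 without si-SCR replicate 3.

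**Figure D4:**
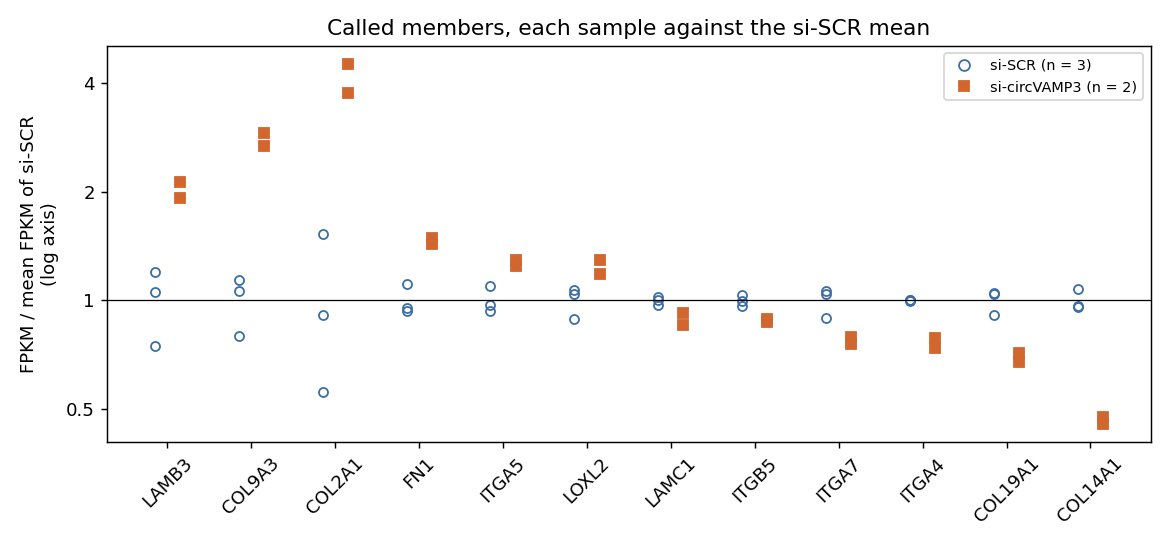
FPKM of the 12 called members in each sample, divided by the mean FPKM of the 3 si-SCR samples, on a logarithmic axis, with si-SCR as open circles and si-circVAMP3 as filled squares. In no member do the groups overlap, but these members were chosen by their calls on the same values. Of all rows, both knock-down samples lay above all controls in 27.8% and below in 28.5%. The spread of the circles is widest for COL2A1, and the squares average 1.46 times the control mean for FN1 and 0.468 times for COL14A1.

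The integrins were the family with the lowest median log2 difference, -0.18, which stayed under 0 in each alternative (-0.21 to -0.06). Of 17 subunits, 1 was called higher (5.88%, against 12.7% of all rows), 3 lower (17.6%, against 14.5%) and 13 neither. Both knock-down samples lay below all controls for 10 of the 17 subunits (58.8%) and above for 2. Of all rows, 28.5% lay below and 27.8% above. Among the 10, ITGA2, ITGA11 and ITGB6 had under 100 fragments in every sample, and the ITGB1 log2 difference was only -0.05. The integrin counts are few, and no test of the family was made. The summed level of the alpha subunits was 94.98, 92.3 and 87.9 FPKM in si-SCR and 87.7 and 87.1 FPKM in si-circVAMP3, and that of the beta subunits 105, 105 and 103 FPKM against 99.1 and 98.2 FPKM.

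ITGB1, the beta subunit shared by the fibronectin, collagen and laminin receptors, was the most abundant integrin. It read 75.4, 74.5 and 72.3 FPKM in si-SCR and 71.9 and 71.2 FPKM in si-circVAMP3. The knock-down samples lay just below the lowest control, and the log2 difference of -0.05 (95% interval -0.14 to 0.04) missed the threshold (limma adjusted p = 0.383). ITGB5, which pairs with ITGAV to bind vitronectin, read 20.5, 21.3 and 19.9 FPKM against 18.3 and 17.95 FPKM. The groups did not overlap (log2 -0.18, limma adjusted p = 0.0327), but the call was lost when any 1 sample other than si-SCR replicate 3 was left out (adjusted p 0.0667 to 0.171) and without the mean-variance trend (0.0819).

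Of the alpha subunits that bind fibronectin, ITGA4 was called lower and ITGA5 higher, while ITGAV, at 10.7, 9.84 and 9.31 FPKM in si-SCR and 10.2 and 9.96 FPKM in si-circVAMP3, overlapped and was not called. ITGA4 (chr2:181457202-181538940, plus strand), which with ITGB1 binds fibronectin and VCAM1, read 19.3, 19.3 and 19.1 FPKM in si-SCR and 14.3 and 15.2 FPKM in si-circVAMP3. The controls were close to each other and both knock-down samples lay well below them. The fold was 0.765 and the log2 difference -0.38 (95% interval -0.50 to -0.27, limma adjusted p = 0.00256), with -0.43 to -0.34 over the alternatives and an adjusted p up to 0.0309. ITGA5, the alpha subunit of the classical fibronectin receptor, read 8.10, 9.14 and 7.84 FPKM against 10.8 and 10.4 FPKM. Both knock-down samples were above all controls (fold 1.27, log2 0.34, limma adjusted p = 0.0188). The ITGA5 call was lost without si-circVAMP3 replicate 1 (adjusted p = 0.121) or replicate 2 (0.0858). The ratio of ITGA5 to ITGA4 was 0.419, 0.474 and 0.41 in the controls and 0.758 and 0.685 in the knock-down samples, so ITGA4 remained the more abundant of the pair in every sample.

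Of the subunits that bind laminin, ITGA7 was called and ITGA6 and ITGA3 were not. ITGA7, which with ITGB1 binds laminin in muscle, read 20.8, 20.3 and 17.5 FPKM in si-SCR and 15.5 and 14.8 FPKM in si-circVAMP3. Both knock-down samples lay below all controls (log2 -0.36, limma adjusted p = 0.018), and the call was lost without si-SCR replicate 2 (adjusted p = 0.0659), si-circVAMP3 replicate 1 (0.0794) or si-circVAMP3 replicate 2 (0.116). ITGA6, which forms laminin receptors with ITGB1 or ITGB4, read 31.8, 29.8 and 29.2 FPKM against 33.1 and 33.5 FPKM. The knock-down samples were the highest, but the log2 difference of 0.14 missed the threshold (limma adjusted p = 0.0816), passing it without si-SCR replicate 1 (adjusted p = 0.0446), with the GC trend removed (0.0475) and with sample weights (0.0338). Of the summed alpha subunit FPKM, ITGA6 made up 33.5%, 32.3% and 33.2% in the controls and 37.7% and 38.4% upon knock-down, and ITGA7 21.9%, 22.0% and 19.9% against 17.7% and 17%. ITGA4 made up 20.3%, 20.9% and 21.75% against 16.3% and 17.4%, and ITGA5 8.53%, 9.90% and 8.92% against 12.3% and 11.95%. In these shares the knock-down samples did not overlap the controls for any of the 4 subunits. The ITGAV share did not overlap either (11.2%, 10.7% and 10.6% against 11.6% and 11.4%), although its FPKM did, so a share can separate without a shift in the level of the gene itself.

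**Figure D5:**
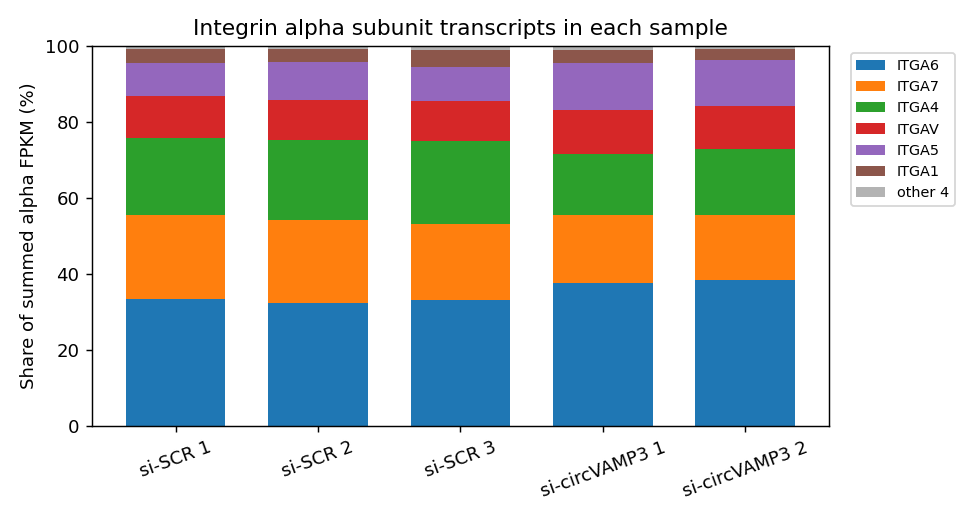
Share of each integrin alpha subunit in the summed FPKM of the 10 measured alpha subunits, in percent, as stacked bars for the 5 samples; the 4 least abundant subunits are drawn together. The ITGA6 share is 32.3% to 33.5% in si-SCR and 37.7% to 38.4% in si-circVAMP3, and the ITGA5 share is 8.53% to 9.90% against 11.95% to 12.3%.

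The enzymes and helpers that make and export collagen were 26 of 28 in the table. Of these, 9 were called higher (34.6%, against 12.7% of all rows) and 5 lower (19.2%, against 14.5%), with a median log2 difference of 0.11. This list and those below were chosen with earlier results of these data known, so their shares are no test against all rows. The higher genes with the largest differences were LOXL4, a crosslinking enzyme (log2 0.52), P3H3, of the prolyl hydroxylase family (0.40), and FKBP10, a collagen chaperone (0.39). Of the 5 lower genes, those with the largest differences were COLGALT2, a collagen galactosyltransferase (-0.64), ADAMTS14, a procollagen peptidase (-0.61), and MIA2, an export factor (-0.51); the other 2 were P4HA1 and FKBP14, a relative of FKBP10, named here after their values were seen. FKBP10 read 21.9, 22.7 and 21.8 FPKM in si-SCR and 29.2 and 28.9 FPKM in si-circVAMP3, and ADAMTS14 read 11.3, 10.9 and 10.6 FPKM against 7.17 and 7.04 FPKM. These 2 calls were kept without each sample in turn (limma adjusted p up to 0.0259 and 0.0154), while those of LOXL4, P3H3, COLGALT2 and MIA2 were lost without si-SCR replicate 2 or either si-circVAMP3 replicate, COLGALT2 also without si-SCR replicate 1, LOXL4 with voom (0.061) and P3H3 without the mean-variance trend (0.0825). The count of higher genes was 5 without si-SCR replicate 2, 1 without si-circVAMP3 replicate 1 and 2 without si-circVAMP3 replicate 2; the count of lower genes was 2 in each of these, and 8 with the GC trend removed.

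Of the integrin adhesion complex, 29 of 31 genes had a row, 2 were called higher (6.9%, against 12.7% of all rows) and 7 lower (24.1%, against 14.5%), and the median log2 difference was -0.04. ZYX, zyxin of mature adhesions, read 30.1, 29.7 and 27.0 FPKM in si-SCR and 19.01 and 17.5 FPKM in si-circVAMP3 (log2 -0.66, limma adjusted p = 0.00121). ILK, the integrin-linked kinase, read 30.6, 33.8 and 35.6 FPKM against 24.4 and 21.9 FPKM (log2 -0.53, adjusted p = 0.00454), and FYN, a Src-family kinase, 6.71, 6.48 and 6.53 FPKM against 4.42 and 4.36 FPKM (log2 -0.57, adjusted p = 0.00145). In these 3 genes both knock-down samples lay below all controls, and the calls were kept without each sample in turn (adjusted p up to 0.0441). TNS2, a tensin, and PXN, paxillin, were higher (log2 0.60 and 0.35), but both lost the call without either si-circVAMP3 replicate (limma adjusted p up to 0.0878 and 0.129), and PXN without the mean-variance trend (0.0562), which left 1 higher call. Without si-circVAMP3 replicate 1 or replicate 2, 0 genes of the complex were called higher and 3 lower.

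Other matrix glycoproteins and proteoglycans had 24 of 36 rows, with 3 called higher (12.5%, against 12.7% of all rows) and 2 lower (8.33%, against 14.5%). MATN2, matrilin, read 0.794, 0.767 and 0.739 FPKM in si-SCR and 0.288 and 0.21 FPKM in si-circVAMP3 (log2 -1.32, limma adjusted p = 0.00166). SMOC1, a SPARC-related calcium-binding protein, read 0.154, 0.119 and 0.119 FPKM against 0.408 and 0.358 FPKM (log2 1.07, adjusted p = 0.00412). SDC4, a syndecan that acts with integrins in adhesion to fibronectin, read 14.8, 16.0 and 13.7 FPKM against 21.3 and 21.6 FPKM (log2 0.53, adjusted p = 0.003). The groups did not overlap in these 3 genes, and the calls were kept without each sample in turn. SDC1 was higher (log2 0.57) and lost the call without either si-circVAMP3 replicate (limma adjusted p up to 0.0759). BCAM, a laminin-binding cell surface protein, was lower (log2 -0.80) and lost it without si-SCR replicate 2 as well (adjusted p up to 0.0896). Leaving out si-SCR replicate 2 or either si-circVAMP3 replicate left 1 lower call in the list, as did keeping only rows with a mean of at least 1 FPKM.

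Of the TGF-beta ligands, receptors, SMADs and latent binding proteins, whose signal is known to control matrix genes, 14 of 16 had a row, 3 were called higher (21.4%, against 12.7% of all rows) and 1 lower (7.14%, against 14.5%). SMAD7, an inhibitor of the pathway, read 0.268, 0.326 and 0.263 FPKM in si-SCR and 0.547 and 0.683 FPKM in si-circVAMP3 (log2 0.89, limma adjusted p = 0.00787). Both knock-down samples were above all controls, and the call was lost without si-circVAMP3 replicate 2 (adjusted p = 0.0676). TGFB3, a ligand, and TGFBR3, a co-receptor, were higher (log2 0.46 and 0.42) and the receptor TGFBR2 was lower (-0.47). Each of these 3 lost the call without si-SCR replicate 2 or either si-circVAMP3 replicate, and TGFBR3 without si-SCR replicate 3 as well (limma adjusted p up to 0.113, 0.198 and 0.113). The list had 1 higher call without si-SCR replicate 2 or si-circVAMP3 replicate 1 and 0 without si-circVAMP3 replicate 2, and 0 lower calls in each of these; keeping only rows with a mean of at least 1 FPKM left 1 higher call, and removing the GC trend gave 2 lower calls.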

How the data were processed

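The FPKM table deposited by the authors was used: per their methods, reads of stranded poly-A libraries were trimmed with Trimmomatic, aligned to GRCh38 with STAR 2.5.2b, counted by strand with htseq-count and converted with the rpkm function of edgeR. The methods state a CPM filter before the differential expression analysis. By the fragments recovered here, 177 rows of the FPKM table were under 1 CPM in every sample.

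In 13819 of 13822 rows the FPKM values of the samples stood in ratios of whole numbers, to 1 part in 10 to the power of 13, which gave fragments and effective library sizes of 26672263, 24991910, 24946567, 18534555 and 28798042 (si-SCR replicates 1 to 3, si-circVAMP3 replicates 1 and 2). A factor shared by all samples was restored in 395 rows from the exon length; where that length did not match, one may be missed. Few fragments limit the precision of low genes. Ensembl IDs were matched to GENCODE 44 (13783 symbols).

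The 3 si-SCR and 2 si-circVAMP3 samples, grouped by title, were compared on log2(FPKM + 0.1) with limma 3.58.1 (trended eBayes, two-sided, R 4.3.3). P-values were Benjamini-Hochberg adjusted over all rows and called under 0.05. The code was tested on simulated data.

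Named with the value in every sample were the called members, the 3 most abundant of each family and their assembly partners. From each partner list, up to 3 called genes in each direction were named, not all with every value. Other names, such as P4HA1, FKBP14, HSPG2 and MYOD1, were chosen after seeing the values. The members and lists were chosen with earlier results of these data known. Alternatives were pseudocounts of 0.01 and 1, a mean of at least 1 FPKM, median-ratio rescaling, quantile normalization, no trend, sample weights, a replicate block and leaving out each sample; voom on the recovered fragments and removal of the GC trend were chosen after seeing the data.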

Additional observations from a re-analysis of the deposited data

How the results depend on the processing

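Leaving out each sample in turn gave 453 to 1954 genes called higher over the whole table (1751 with all samples) and 802 to 2039 called lower (2004 with all). Among the members it gave 1 to 6 higher calls and 2 to 8 lower calls. VAMP3 ranged from -0.31 to -0.27 and missed the threshold without si-circVAMP3 replicate 1 (limma adjusted p = 0.052). Fewer samples enter these fits. The other alternatives left each of these counts within 1.5 times its value with all samples.

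Among the genes rerun under the alternatives, signs changed in 4 collagens and HSPG2, none of them called with all samples. COL1A1 was at 0.061 under quantile normalization, at 0.028 with voom on the recovered fragments and from -0.17 to 0.11 when a sample was left out. Leaving out samples gave -0.094 to 0.062 for COL4A1, -0.155 to 0.079 for COL5A1, -0.384 to 0.090 for COL6A1 and -0.038 to 0.313 for HSPG2, which was also at -0.038 with a replicate block. The cause was not tested. For these single genes and the partner lists, 723 values kept their direction and side of the threshold, or a count within 1.5 times; 89 kept the direction but missed the threshold, 9 passed it, and 25 counts moved further.

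With a replicate block, 5 members were called higher and 7 lower, and 9 of the 12 calls were shared; COL19A1, ITGA5 and ITGB5 were lost and COL3A1, COL6A1 and NID1 gained. Of all genes, 1315 were higher and 1566 lower. Among the named partner and marker genes, LOXL4, P3H3, COLGALT2, FOXO1, PDGFRB, TGFB3 and TGFBR3 lost the call with the block (limma adjusted p 0.0524 to 0.101). The TGF-beta list then had 1 higher call. The labels give same-numbered samples only the number in common, and deviations of same-numbered samples correlated at -0.09 and -0.02. With 2 knock-down samples the deviations of 1 mirror those of the other, so these 2 values are not independent. As si-SCR replicate 3 has no partner, it does not enter the blocked difference.

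The limits are 2 knock-down samples, 1 cell line, 1 siRNA and, for 20 members, under 100 fragments in every sample, where only wide differences are detectable.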
